A study of Rattus norvegicus with 30 samples.

Results

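The genes described here encode the cytochrome P450 enzymes of families 1, 2 and 3, the haem enzymes that oxidise drugs, steroids, fatty acids and pollutants in the liver. A gene was a member if its only symbol in the array's annotation began with Cyp, then 1, 2 or 3, a subfamily letter and a number, and it was read from its brightest probe set. This gave 32 genes of the 14217 with a single symbol, from 34 probe sets, and 29 of the 32 were bright enough to be tested. Another 3 probe sets each carry symbols of more than 1 of these genes (Cyp2a1 with Cyp2a2, Cyp2b1 with Cyp2b2, Cyp2d1 with Cyp2d5) and no value is given from them.

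The cells were frozen primary hepatocytes of male Sprague Dawley rats, thawed, plated on collagen, overlaid with Matrigel and dosed on day 3 of culture. Clofibrate is a fibrate, a lipid-lowering drug whose acid form activates the nuclear receptor PPAR alpha. The 6 groups were DMSO alone (the vehicle, 1%), clofibrate at 60 uM and clofibrate at 1000 uM, each harvested 24 h or 48 h after dosing. Every group had 5 separately grown wells, each read on its own expression array (n = 5 throughout), and the number of animals behind the cells is not stated in the labels, so p-values measure the spread between wells.

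P450 enzymes sit in the endoplasmic reticulum membrane and take electrons from NADPH-cytochrome P450 reductase. Family 1 genes are classic targets of the aryl hydrocarbon receptor AHR, subfamily 2B genes of the nuclear receptor CAR and subfamily 3A genes of PXR, while PPAR alpha is best known for inducing subfamily 4A, which is outside these families. In the rat several members differ between the sexes under the pulsatile or continuous release of growth hormone, and many fall when hepatocytes are held in culture. Enzymes of families 1 to 3 are therefore a usual readout of both drug response and of how differentiated cultured hepatocytes remain.

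Across the 4 comparisons with DMSO, 9 of the 29 tested genes passed as higher in at least 1, 12 passed as lower in at least 1, none passed in both directions and 8 passed in none. The test was limma's moderated test on log2 signal, adjusted by Benjamini-Hochberg over all 18625 tested probe sets, with a threshold of 0.05. The 9 that rose were Cyp2a1, Cyp2a2, Cyp2c13, Cyp2d3, Cyp2e1, Cyp2j4, Cyp3a2, Cyp3a18 and Cyp3a23-3a1. The 12 that fell were Cyp1a1, Cyp1a2, Cyp2c6v1, Cyp2c7, Cyp2c11, Cyp2c22, Cyp2c23, Cyp2d2, Cyp2d4, Cyp2f4, Cyp2t1 and Cyp3a9. Cyp2a2 and Cyp2j4 were higher in all 4 comparisons, and Cyp2c11, Cyp2f4 and Cyp2t1 were lower in all 4. The shares of all tested probe sets with these patterns over the 4 comparisons were not computed. At 1000 uM for 48 h alone, 37.9% of all tested probe sets passed. Whether these pooled counts, or the lack of genes passing in both directions, set the P450 genes apart was therefore not tested.

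At 60 uM for 24 h, 8 members passed (3 higher and 5 lower), beside 6.56% of all tested probe sets (3.43% higher and 3.14% lower) and 17.4% of the 25% brightest of them. At 1000 uM for 24 h, 15 passed (5 higher and 10 lower), beside 28.9% of all (11.5% higher and 17.4% lower) and 53.3% of the 25% brightest. At 60 uM for 48 h the count was 10 (5 higher and 5 lower), beside 9.05% (4.62% higher and 4.43% lower) and 23.1%. At 1000 uM for 48 h it was 18 (9 higher and 9 lower), beside 37.9% (15.2% higher and 22.7% lower) and 64.2%. As shares of the 29 members these are 27.6%, 51.7%, 34.5% and 62.1%, so at 1000 uM the members' share lay near that of bright probe sets in general, and 19 of the 29 members belong to those 25%. The members' median log2 changes were -0.11, -0.11, 0.04 and -0.05 in the same order, beside -0.03, -0.05, 0.00 and -0.04 over all tested probe sets. A median near 0 over genes that moved both ways does not describe the single members.

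The 5 treated wells lay wholly outside the 5 DMSO wells for 7, 12, 9 and 14 members in the same order of comparisons, beside 6.56%, 21.6%, 7.77% and 26.7% of all tested probe sets. The deposited signals were scaled so that every array has the same trimmed mean. Scaling the arrays to their 12 bacterial poly-A spike-in control probe sets instead (how the spikes were added is not stated in the labels) moved the median of all tested probe sets up by 0.12, 0.23, 0.03 and 0.15 log2. The counts then became 4 higher and 0 lower, 6 higher and 4 lower, 5 higher and 3 lower, and 10 higher and 5 lower, so the falls named below are relative to the bulk of the array, and each that was lost under this scaling is marked where it is described.

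**Figure D1:**
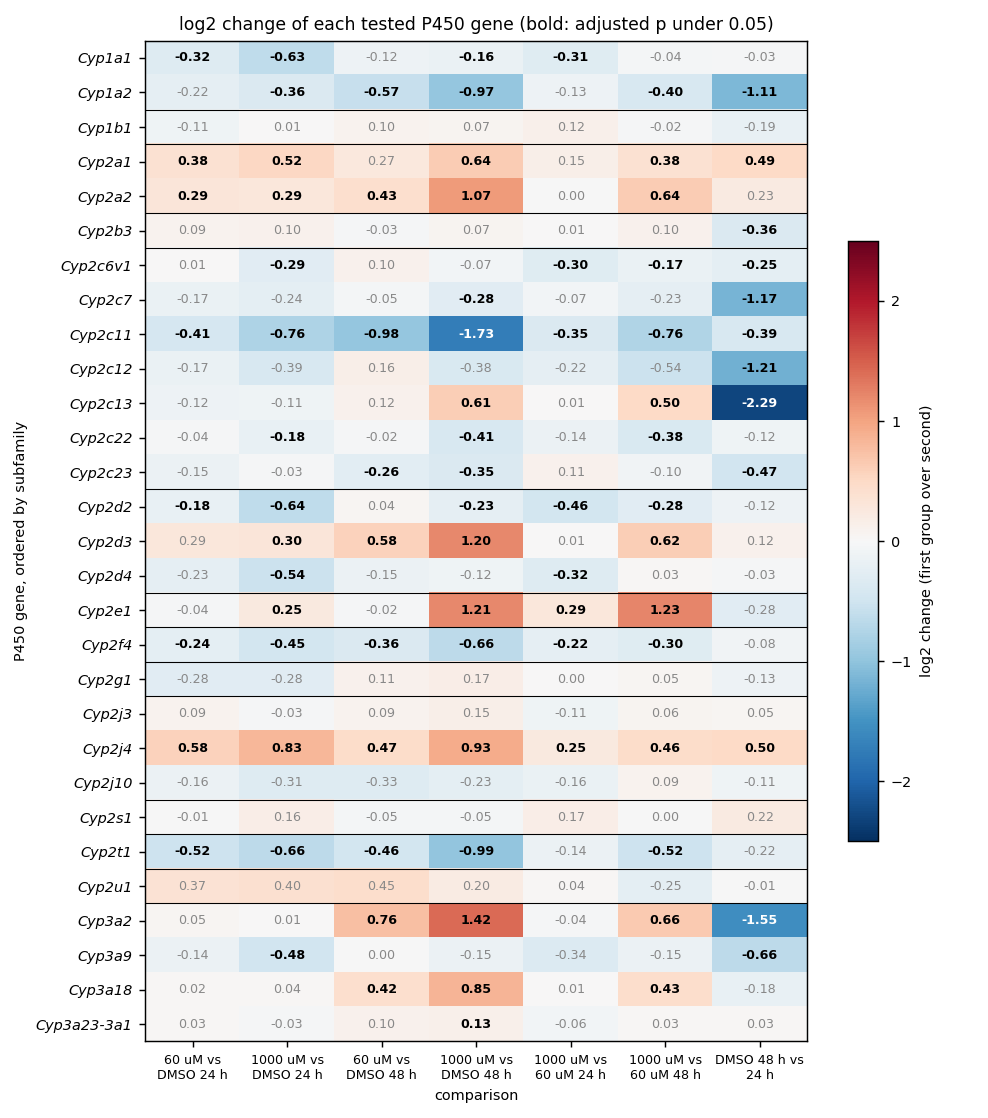
Heat map of log2 changes (colour and number in each cell, first group over second) for the 29 tested P450 genes (rows, ordered by subfamily) in the 4 comparisons with DMSO, the comparisons of 1000 with 60 uM and of 48 h with 24 h under DMSO (columns), in bold where the limma adjusted p was under 0.05. In the 4 DMSO columns Cyp2j4 and Cyp2a2 are higher throughout and Cyp2c11, Cyp2f4 and Cyp2t1 lower throughout, with -1.73 for Cyp2c11 at 1000 uM and 48 h.

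By subfamily at 1000 uM and 48 h, both 2A genes rose, 3 of 4 tested 3A genes rose, and Cyp2e1 and 1 of 3 tested 2J genes rose. Of the 7 tested 2C genes 4 fell and 1 rose, of the 3 2D genes 1 rose and 1 fell, both 1A genes fell, and so did the single members of 2F and 2T. The single tested members of 1B, 2B, 2G, 2S and 2U did not pass. For 2B that gene was Cyp2b3. Cyp2b1 and Cyp2b2 share a probe set from which no value is given, so their response was not assessed. At 1000 uM and 24 h no 3A gene had risen and 1 had fallen, both 2A genes, Cyp2j4, Cyp2e1 and Cyp2d3 were higher, and Cyp2c6v1, Cyp2c11, Cyp2c22, Cyp2d2, Cyp2d4, both 1A genes, Cyp2f4 and Cyp2t1 were lower.

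The hepatocyte identity of the cultures was read from 9 marker genes, all tested and all above the filter. Their summed signal ranged from 442836 to 584769 over the 30 arrays. At 1000 uM 7 of the 9 passed as lower at 24 h, and 4 as lower with 1 higher at 48 h. Of all tested probe sets 17.4% and 22.7% passed as lower, and 53.3% and 64.2% of the 25% brightest passed in either direction. Under spike-in scaling 4 of the 24 h falls turned positive without passing. Those of Cps1 (-0.07, adjusted p = 0.518) and Ahsg (-0.09, adjusted p = 0.425) did not pass either. The 48 h falls of Serpina1 (-0.10, adjusted p = 0.38) and Cps1 (-0.04, adjusted p = 0.742) were also lost under that scaling. Tat, the glucocorticoid-responsive tyrosine aminotransferase, changed by -0.94 ± 0.08 and -1.31 ± 0.08 log2 at 1000 uM, while Alb, the albumin gene, did not pass at either time (adjusted p = 0.0686 and adjusted p = 0.977). Arrays of a group correlated at 0.964 to 0.979 over the tested probe sets, the lowest correlation between arrays of different groups was 0.931, and the 3'/5' signal ratio was 2.33 to 2.56 for actin and 1.14 to 1.18 for Gapdh. Markers of Kupffer cells, the liver's macrophages, had a summed signal of 12631 to 14245 under DMSO and 9499 to 11616 at 1000 uM at 24 h, and of 10868 to 12062 and 7552 to 8623 at 48 h, with 2 of the 9 on the array under the filter and none under the background floor. Of their 7 tested genes, Lyz2, the brightest, passed as lower at both 1000 uM times (-0.59 and -0.85 log2) and C1qb at 48 h (-1.86). The other 5 passed at neither time, with 48 h values of 0.16 for Cd68, 0.29 for Csf1r and 0.38 for Clec4f and a median over the 7 of 0.10. At 60 uM the sum was 10967 to 12376 at 24 h, which overlapped 1000 uM, and 9033 to 10299 at 48 h. Mean Lyz2 signal was 7584 under DMSO and 5080 at 1000 uM at 24 h, and 7598 and 4198 at 48 h. Much of the fall in the sum at 1000 uM thus lay in this 1 gene, and the part of the summed signal in the P450 changes was not tested. Fewer cells of a type and less RNA per cell cannot be told apart in these bulk samples.

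Both family 1A genes fell with clofibrate, at different times. Cyp1a1, which oxidises polycyclic aromatic hydrocarbons and is the textbook AHR target, was lower at 24 h and had largely returned to the DMSO level at 48 h, whereas Cyp1a2, the hepatic enzyme that clears caffeine, fell further at 48 h. Cyp1a1 signals at 24 h were 30943, 34670.0, 31438.5, 30693 and 32165 under DMSO, 23755, 24361, 26485.5, 25780.1 and 28239.5 at 60 uM and 18808, 20305, 21405, 20413 and 22671 at 1000 uM. Cyp1a1 at 48 h read 31773, 35896, 30625, 26622 and 32105.5 under DMSO, 29107, 30650.5, 26151, 28553 and 29454 at 60 uM and 27987, 27977, 28332, 27325 and 28264 at 1000 uM. The 3 groups at 24 h did not overlap and stepped down with dose, whereas at 48 h all 5 wells at 1000 uM lay inside the wide range of the DMSO wells. Cyp1a1 changed by -0.32 ± 0.06 (adjusted p = 0.000347) at 60 uM and -0.63 ± 0.06 (adjusted p = 1.7e-10) at 1000 uM after 24 h, a 1.54-fold lower level at the higher dose. The 48 h change at 1000 uM was -0.16 ± 0.06 (adjusted p = 0.0289), and this call was lost with spike-in scaling (-0.01, adjusted p = 0.948), with median centring, without the intensity trend in the variance and without any 1 of DMSO replicates 1, 2 and 5 or of 1000 uM replicate 4. The 60 uM call at 24 h was lost with spike-in scaling (-0.19, adjusted p = 0.297). The 1000 uM effect differed between the times by 0.47 ± 0.08 (adjusted p = 0.000205), which also did not pass with spike-in scaling (0.38, adjusted p = 0.118).

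Cyp1a2 signals at 24 h were 17025, 17887, 16212, 18136 and 18048 under DMSO, 14503.5, 14339, 14810.2, 14667 and 16651 at 60 uM and 12830.3, 13149, 12787, 14024 and 15601 at 1000 uM. Cyp1a2 at 48 h read 8144, 8208, 8286, 7008 and 8778 under DMSO, 5163, 5196, 5752, 4969 and 6184 at 60 uM and 4394, 3915, 4240.3, 3369.7 and 4824 at 1000 uM. Even the highest 48 h DMSO well lay below the lowest 24 h DMSO well, and at 48 h the 60 and 1000 uM wells both lay wholly below DMSO. The change at 48 h was -0.57 ± 0.08 (adjusted p = 1.28e-06) at 60 uM and -0.97 ± 0.08 (adjusted p = 1.61e-12) at 1000 uM, the latter a 1.96-fold lower level. At 24 h the 1000 uM change was -0.36 ± 0.08 (adjusted p = 0.000355), which did not pass with spike-in scaling (-0.12, adjusted p = 0.398), and the 60 uM change of -0.22 ± 0.08 (adjusted p = 0.0783) did not pass. Its 1000 uM effect was more negative at 48 h than at 24 h by -0.61 ± 0.11 (adjusted p = 0.000158). Cyp1a1 and Cyp1a2 are adjacent in the rat genome with no protein-coding gene between them. Cyp1b1, an AHR target expressed mainly outside hepatocytes, had group means of 493 to 561 and no comparison passed, with a 95% interval of -0.33 to 0.47 log2 for 1000 uM at 48 h.

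**Figure D2:**
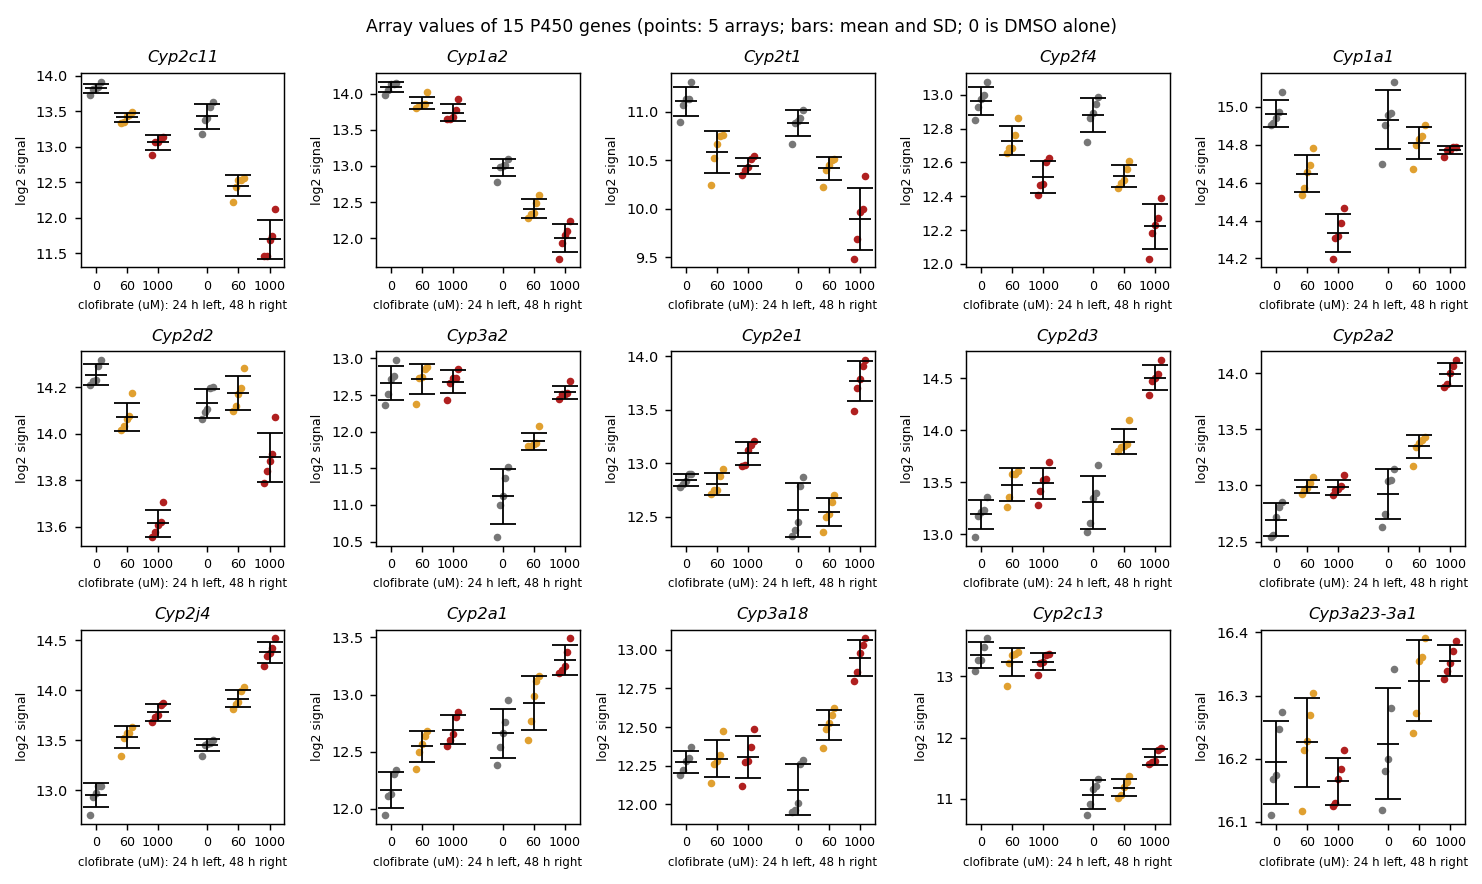
Log2 signal of each of the 5 arrays per group (points, drawn in ascending order within a group) with the group mean and SD (bars) for 15 P450 genes, against clofibrate dose in uM with 24 h groups on the left and 48 h groups on the right of each panel, and each panel on its own vertical axis. The 1000 uM wells at 48 h lie wholly below DMSO for Cyp2c11, Cyp1a2, Cyp2t1 and Cyp2f4 and wholly above DMSO for Cyp3a2, Cyp2e1, Cyp2d3, Cyp2a2 and Cyp2j4.

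Subfamilies 2A, 2F, 2G and 2T lie side by side in the rat genome, in the order Cyp2g1, Cyp2a3, Cyp2a1, Cyp2a2, Cyp2f4 and Cyp2t1, with no protein-coding gene between neighbours. Along this run the 2 adjacent genes Cyp2a1 and Cyp2a2, steroid hydroxylases of the liver, rose, and the next 2, Cyp2f4 and Cyp2t1, fell. Cyp2a2 signals at 24 h were 7419.9, 5969, 6752, 6026 and 7167 under DMSO, 8629, 8044, 7768, 7943 and 8336 at 60 uM and 8181, 7735, 7951, 8741 and 7994 at 1000 uM. Cyp2a2 at 48 h read 8483, 6332, 6860.4, 9085 and 8413 under DMSO, 10366.5, 9261, 10669.5, 10839.9 and 11076 at 60 uM and 15290.2, 15053, 16345, 17086 and 17726 at 1000 uM. Its treated wells lay above all DMSO wells of the same time in every comparison, and at 48 h the 3 groups stepped up with dose. Cyp2a2, an enzyme that predominates in male liver, changed by 0.29 ± 0.08 (adjusted p = 0.0127) and 0.29 ± 0.08 (adjusted p = 0.00349) at 60 and 1000 uM for 24 h, and by 0.43 ± 0.08 (adjusted p = 0.000153) and 1.07 ± 0.08 (adjusted p = 1.93e-13) for 48 h. The last is a 2.10-fold higher level, and the 1000 uM effect was larger at 48 h than at 24 h by 0.78 ± 0.11 (adjusted p = 5.89e-06). The 60 uM call at 24 h was lost without DMSO replicate 2 or DMSO replicate 4, with the highest adjusted p at 0.0532.

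Cyp2a1 signals at 24 h were 5187.5, 5051, 4493, 3947 and 4436 under DMSO, 5769.5, 6080.1, 5204, 6581 and 6379.7 at 60 uM and 7157, 5984, 6231, 7351 and 6465 at 1000 uM. Cyp2a1 at 48 h read 6498, 5351, 6935, 5959.8 and 7904 under DMSO, 6202, 6994, 8103, 8890.2 and 9166 at 60 uM and 9491, 9312, 9729, 10633 and 11509.8 at 1000 uM. The treated wells at 24 h all lay above DMSO, whereas at 48 h only the 1000 uM wells did. Cyp2a1, whose enzyme hydroxylates testosterone and predominates in female rats, changed by 0.38 ± 0.10 (adjusted p = 0.0146) and 0.52 ± 0.10 (adjusted p = 9.23e-05) at 24 h. Cyp2a1 at 48 h changed by 0.27 ± 0.10 (adjusted p = 0.1) and 0.64 ± 0.10 (adjusted p = 2.99e-06) for 60 and 1000 uM. Its DMSO level itself was higher at 48 h by 0.49 ± 0.10 (adjusted p = 0.00126), and the 60 uM call at 24 h was lost without DMSO replicate 4 (adjusted p = 0.0621). Cyp2a1 and Cyp2a2 are close in sequence and a probe set can read both transcripts, so how far their 2 rises are separate was not tested. The third 2A gene, Cyp2a3, was under the brightness filter with group means of 198 to 296 and was not tested.

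Cyp2f4 signals at 24 h were 8044, 7795, 8183, 7383 and 8632 under DMSO, 6595, 6441, 6942, 6579.6 and 7441 at 60 uM and 5649, 5434, 5673.5, 6328 and 6211 at 1000 uM. Cyp2f4 at 48 h read 7874, 8110.3, 7617, 6742 and 7463 under DMSO, 5709.9, 5787, 5585, 6240.1 and 6049 at 60 uM and 4656, 4185, 4812, 4941 and 5375 at 1000 uM. At 1000 uM every well lay below every DMSO well at both times. Cyp2f4, known for bioactivating naphthalene in lung, changed by -0.24 ± 0.06 (adjusted p = 0.0113) and -0.45 ± 0.06 (adjusted p = 3.12e-07) at 24 h. Cyp2f4 at 48 h changed by -0.36 ± 0.06 (adjusted p = 5.55e-05) and -0.66 ± 0.06 (adjusted p = 7.92e-11). Both 24 h calls were lost with spike-in scaling (-0.11, adjusted p = 0.633 at 60 uM, and -0.22, adjusted p = 0.0915 at 1000 uM), and the 60 uM call also with median centring (-0.18, adjusted p = 0.2).

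Cyp2t1 signals at 24 h were 2532, 2145, 2237, 2251 and 1909 under DMSO, 1210.4, 1623, 1472, 1718 and 1739 at 60 uM and 1349, 1497, 1300.3, 1381 and 1459 at 1000 uM. Cyp2t1 at 48 h read 2080.3, 1956, 1895, 1623 and 1917 under DMSO, 1193, 1454, 1398, 1355 and 1461 at 60 uM and 1293, 828, 1020.2, 718 and 1001 at 1000 uM. The treated wells lay below DMSO without overlap in all 4 comparisons, with a wide spread at 1000 uM and 48 h. Cyp2t1, an orphan P450 without a well-established substrate, changed by -0.52 ± 0.11 (adjusted p = 0.00285) and -0.66 ± 0.11 (adjusted p = 2.37e-05) at 24 h. Cyp2t1 at 48 h changed by -0.46 ± 0.11 (adjusted p = 0.00619) and -0.99 ± 0.11 (adjusted p = 1.33e-08). The 60 uM calls were lost with spike-in scaling at 24 h (-0.40, adjusted p = 0.0945) and at 48 h (-0.43, adjusted p = 0.0694). Cyp2g1, an enzyme of the olfactory mucosa, had group means of 274 to 341 and passed in no comparison. Outside this run, Cyp2b3, a constitutively expressed liver 2B gene, had group means of 2507 to 3526 and passed in no DMSO comparison, with a 95% interval at 1000 uM of -0.09 to 0.29 log2 at 24 h and -0.12 to 0.27 at 48 h. Cyp2b12 was under the level of the negative controls in all 6 groups, and Cyp2b21 was under the filter with group means of 185 to 238. Cyp2s1, expressed mainly in epithelia of lung and gut, had group means of 467 to 546 and passed in no comparison.

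Subfamily 2C holds the main steroid and arachidonic acid hydroxylases of rat liver, and its 7 tested members moved apart. Cyp2c11, the male-specific testosterone hydroxylase that growth hormone pulses maintain, had the largest fall of any member at 1000 uM, at both times, while Cyp2c13, also male-predominant, rose at 1000 uM and 48 h from a DMSO level that had dropped in culture. Cyp2c11 signals at 24 h were 14669, 13542, 14379, 14559.5 and 15404 under DMSO, 10418, 11104, 11488, 11180.4 and 10375 at 60 uM and 8581, 9051, 8966, 8616 and 7586 at 1000 uM. Cyp2c11 at 48 h read 10849, 10634.5, 9293, 12098 and 12658 under DMSO, 5933, 4762, 5523, 5897 and 6066 at 60 uM and 2828, 3286, 2836, 3420.3 and 4473 at 1000 uM. The 6 groups stepped down with dose at both times, and within each time no 2 groups overlapped. Cyp2c11 changed by -0.41 ± 0.09 (adjusted p = 0.00265) and -0.76 ± 0.09 (adjusted p = 2.69e-08) at 24 h. Cyp2c11 at 48 h changed by -0.98 ± 0.09 (adjusted p = 7.96e-10) and -1.73 ± 0.09 (adjusted p = 5.6e-17). The 1000 uM level at 48 h was 3.33-fold lower, 3369 ± 672 against 11106 ± 1319.8 under DMSO (mean signal ± SD, n = 5). The effect at 1000 uM was larger at 48 h by -0.97 ± 0.13 (adjusted p = 2.53e-06), and the 60 uM call at 24 h was lost with spike-in scaling (-0.29, adjusted p = 0.236).

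Cyp2c13 signal fell from 10535 ± 1515 to 2166 ± 345 under DMSO between 24 and 48 h (mean ± SD, n = 5). At 48 h the DMSO wells read 1700.0, 1931, 2273, 2551 and 2374, the 60 uM wells 2643, 2339, 2472, 2063 and 2145 and the 1000 uM wells 3121, 3647, 3557, 3025 and 3097. The 1000 uM wells lay above all DMSO wells, and still far below the 24 h wells. The change at 1000 uM and 48 h was 0.61 ± 0.11 (adjusted p = 2.03e-05), and at 24 h it was -0.11 ± 0.11 (adjusted p = 0.508), which did not pass. The difference of these effects was 0.72 ± 0.15 (adjusted p = 0.00162), which did not pass with spike-in scaling (0.64, adjusted p = 0.0562). The probe set's name marks it as one that can read several similar transcripts.

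Start-site windows of Cyp2c11 and Cyp2c13 are shown because these male-predominant genes of the same subfamily moved in opposite directions at 1000 uM and 48 h. Each window runs from 250 bases before to 50 bases after the transcription start in RefSeq on the GRCr8 build, at chr1:246174966-246175265 on the plus strand for Cyp2c11 and chr1:248787139-248787438 on the minus strand for Cyp2c13, written 5′ to 3′ along the gene. Capitals mark every match, on either strand, to the TATA box letters TATAAA, the CCAAT box, the nuclear receptor half-site AGGTCA, the core AHR element GCGTG or the HNF1 half-site GTTAAT, with matches on the opposite strand appearing as the reverse complement.
Cyp2c11: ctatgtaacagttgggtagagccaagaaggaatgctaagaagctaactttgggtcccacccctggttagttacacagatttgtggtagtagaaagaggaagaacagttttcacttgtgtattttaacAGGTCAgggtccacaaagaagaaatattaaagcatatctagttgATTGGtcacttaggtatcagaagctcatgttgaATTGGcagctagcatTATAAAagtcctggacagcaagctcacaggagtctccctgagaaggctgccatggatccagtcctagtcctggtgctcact
Cyp2c13: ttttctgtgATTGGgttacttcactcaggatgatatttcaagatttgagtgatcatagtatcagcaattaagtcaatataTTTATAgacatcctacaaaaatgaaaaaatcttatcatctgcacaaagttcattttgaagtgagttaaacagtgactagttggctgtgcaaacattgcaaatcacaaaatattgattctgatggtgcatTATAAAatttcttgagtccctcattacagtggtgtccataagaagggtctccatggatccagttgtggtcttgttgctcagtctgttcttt
Over 274 aligned bases the windows were 63.9% identical, and the Cyp2c13 window was closer to that of its neighbour Cyp2c12 (78.9% over 266 bases). Cyp2c11 had TATAAA at position -31, CCAAT on the opposite strand at -79 and -46 and AGGTCA at -123, counted from the start site to the match's first base. Cyp2c13 had TATAAA at -41, the same motif on the opposite strand at -170 and CCAAT on the opposite strand at -241, and no AGGTCA match in this window.

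The other 2C genes changed by less against DMSO. Cyp2c22, an enzyme linked to retinoic acid metabolism in hepatocytes, had signals of 45055 to 53853 under DMSO and 34522 to 37252 at 1000 uM at 48 h, a change of -0.41 ± 0.05 (adjusted p = 1.28e-07). At 24 h its 1000 uM change was -0.18 ± 0.05 (adjusted p = 0.00817), a call lost with median centring. With spike-in scaling the call was lost too and the sign turned (0.05, adjusted p = 0.702). Cyp2c23, an arachidonic acid epoxygenase, changed by -0.35 ± 0.08 (adjusted p = 0.000358) at 1000 uM and 48 h, a call lost with spike-in scaling (-0.20, adjusted p = 0.137). Its 60 uM change at 48 h of -0.26 ± 0.08 (adjusted p = 0.0275) was lost in 7 alternatives, with the highest adjusted p at 0.331 under spike-in scaling. The others were array weights, a fit on the compared groups alone and leaving out replicate 1 or 5 of either group. Cyp2c7, a retinoid-metabolising enzyme that predominates in females, changed by -0.28 ± 0.09 (adjusted p = 0.0174) at 1000 uM and 48 h, and the call was lost in 5 alternatives. These were spike-in scaling (-0.13, adjusted p = 0.465), quantile normalization (-0.22, adjusted p = 0.073), a fit on the compared groups alone, and leaving out 1000 uM replicate 1 or DMSO replicate 4. Cyp2c6v1, a form expressed in both sexes, fell at 1000 uM and 24 h (-0.29 ± 0.04 (adjusted p = 3.2e-06)) and passed in no other DMSO comparison, and the fall did not pass with spike-in scaling (-0.06, adjusted p = 0.674). Cyp2c12, the female-specific steroid sulfate hydroxylase, passed in none of the 4 DMSO comparisons, with changes of -0.39 ± 0.21 and -0.38 ± 0.21 at 1000 uM for 24 and 48 h.

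Of the 3 tested 2D genes, relatives of the human debrisoquine hydroxylase, 2 adjacent ones moved in opposite directions at 1000 uM. Cyp2d3 rose and its neighbour Cyp2d2, with no protein-coding gene between them, fell, the former mainly at 48 h and the latter mainly at 24 h. Cyp2d3 signals at 24 h were 9649.7, 9525, 8063, 9240.0 and 10521.5 under DMSO, 12230.3, 10515, 9867, 12248 and 12539.7 at 60 uM and 11824.5, 9966, 10956, 11800.1 and 13271 at 1000 uM. Cyp2d3 at 48 h read 8819, 8345, 10783, 10436 and 12996 under DMSO, 15007, 14713.5, 14252, 14731 and 17531 at 60 uM and 23212, 20798.5, 23907, 22733 and 26159 at 1000 uM. The 24 h groups overlapped, and at 48 h the groups stepped up with dose without overlap. Cyp2d3 changed by 0.58 ± 0.09 (adjusted p = 3.47e-05) at 60 uM and 1.20 ± 0.09 (adjusted p = 2e-12) at 1000 uM after 48 h, 2.30-fold higher at the latter. At 24 h the 1000 uM change was 0.30 ± 0.09 (adjusted p = 0.015), a call lost without DMSO replicate 3 or 1000 uM replicate 5 (highest adjusted p = 0.0604), and the 60 uM change was 0.29 ± 0.09 (adjusted p = 0.063), which did not pass. The 1000 uM effects differed between times by 0.90 ± 0.13 (adjusted p = 1.55e-05).

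Cyp2d2 signals at 24 h were 20382, 20022.5, 18935, 19148 and 19193 under DMSO, 17109, 16543, 17273.5, 16758 and 18471 at 60 uM and 12057, 12244, 12602.5, 13360.4 and 12502 at 1000 uM. Cyp2d2 at 48 h read 18798, 17121, 17470.5, 17615 and 18765 under DMSO, 18788, 17515.5, 17784.5, 18456 and 19925 at 60 uM and 14653, 14151, 15098, 15416 and 17192 at 1000 uM. At 24 h the 3 groups stepped down with dose without overlap, whereas at 48 h the highest 1000 uM well reached into the DMSO range and the 60 uM wells lay around DMSO. Cyp2d2 changed by -0.18 ± 0.05 (adjusted p = 0.00988) and -0.64 ± 0.05 (adjusted p = 3.43e-13) at 24 h. Cyp2d2 at 48 h changed by 0.04 ± 0.05 (adjusted p = 0.688) and -0.23 ± 0.05 (adjusted p = 9.91e-05). With spike-in scaling the 60 uM call at 24 h (-0.06, adjusted p = 0.807) and the 1000 uM call at 48 h (-0.08, adjusted p = 0.505) were lost, as was the difference of the 1000 uM effects between times, 0.41 ± 0.06 as deposited (adjusted p = 4.84e-05) and 0.32, adjusted p = 0.175 under that scaling. Median centring also ended the 60 uM call at 24 h (adjusted p = 0.281). Cyp2d4, which is also expressed in brain, changed by -0.54 ± 0.11 (adjusted p = 0.000156) at 1000 uM and 24 h and in no other DMSO comparison, overlapped with DMSO, and was lost with spike-in scaling (-0.31, adjusted p = 0.0814). A second Cyp2d4 probe set gave -0.35 in that comparison and did not pass (adjusted p = 0.0866).

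Cyp2e1, which oxidises ethanol, acetone and paracetamol, was higher at 1000 uM, slightly at 24 h and by a larger step at 48 h. Cyp2e1 signals at 24 h were 7005, 7303, 7161, 7623 and 7612 under DMSO, 7518, 7879, 6701, 6866 and 6865 at 60 uM and 8905, 8073, 9194, 9475 and 8050.4 at 1000 uM. Cyp2e1 at 48 h read 5115, 5327, 5589, 7074 and 7491 under DMSO, 6649, 5250.1, 6353, 5767 and 5871 at 60 uM and 13335, 11513, 15381.5, 14097 and 15944.5 at 1000 uM. The 1000 uM wells lay above all DMSO and 60 uM wells at both times, and the 60 uM wells overlapped DMSO at both. The change at 1000 uM and 48 h was 1.21 ± 0.09 (adjusted p = 4.46e-13), 2.31-fold, and at 60 uM it was -0.02 ± 0.09 (adjusted p = 0.938) with a 95% interval of -0.20 to 0.16. The 24 h change at 1000 uM was 0.25 ± 0.09 (adjusted p = 0.0329) and was lost in 8 of 20 alternatives, including without DMSO replicate 1, 2 or 3 and without 1000 uM replicate 1, 3 or 4, with the highest adjusted p at 0.089. Between the times the 1000 uM effect differed by 0.96 ± 0.13 (adjusted p = 2.59e-06).

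In subfamily 2J, whose enzymes turn arachidonic acid into epoxides, only Cyp2j4 of 3 tested genes passed against DMSO, and it rose in all 4 comparisons. Cyp2j4 signals at 24 h were 8065, 6907, 7816, 8469 and 8454 under DMSO, 12230.0, 12716, 11768, 10417 and 12221 at 60 uM and 13163, 14969.6, 13795, 14829 and 13606 at 1000 uM. Cyp2j4 at 48 h read 11347, 10426, 11229, 11647 and 11307 under DMSO, 14428, 16747, 14919.7, 16268 and 15141 at 60 uM and 20708, 19332, 21997, 23459 and 21249.9 at 1000 uM. Within each time the DMSO, 60 uM and 1000 uM wells stepped up without overlap. Cyp2j4 changed by 0.58 ± 0.06 (adjusted p = 8.56e-09) and 0.83 ± 0.06 (adjusted p = 3.02e-13) at 24 h. Cyp2j4 at 48 h changed by 0.47 ± 0.06 (adjusted p = 5.23e-07) and 0.93 ± 0.06 (adjusted p = 1.03e-14). Every one of the 20 alternatives kept these 4 calls, and the 1000 uM effect did not differ detectably between times (0.10 ± 0.08 (adjusted p = 0.56)). Its neighbour Cyp2j3, with no protein-coding gene between them, had group means of 2245 to 2653 and a 48 h change at 1000 uM of 0.15 ± 0.09 with a 95% interval of -0.04 to 0.35, and passed in no comparison as deposited. With spike-in scaling that change passed (0.30, adjusted p = 0.0395). Cyp2j10 had group means of 999 to 1349 and passed in none, and nor did Cyp2u1, a fatty acid hydroxylase best known from brain and thymus, with group means of 369.9 to 486.

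Subfamily 3A, the PXR-regulated enzymes that clear most drugs and hydroxylate steroids, showed no rise at 24 h and rises at 48 h. Cyp3a2, the male-predominant testosterone hydroxylase, changed most. Cyp3a2 signals at 24 h were 5278, 6734, 5851, 8045 and 6915 under DMSO, 6855, 7583, 7388, 6780.2 and 5333 at 60 uM and 6772, 6492, 6777, 7393 and 5531 at 1000 uM. Cyp3a2 at 48 h read 1516, 2236, 2048, 2946 and 2633 under DMSO, 3679, 3565, 4313, 3632 and 3592 at 60 uM and 5822, 5904, 6617, 5559 and 5826 at 1000 uM. At 24 h the 3 groups overlapped throughout. At 48 h the DMSO wells had dropped far below their 24 h level, the 60 uM wells lay above them and the 1000 uM wells above both, so the 1000 uM mean of 5946 ± 397 was closer to the 24 h DMSO mean of 6565 ± 1062 than to the 48 h DMSO mean of 2276 ± 549 (mean ± SD, n = 5). Cyp3a2 changed by 0.76 ± 0.12 (adjusted p = 4.16e-05) at 60 uM and 1.42 ± 0.12 (adjusted p = 2.27e-11) at 1000 uM after 48 h, 2.67-fold at the latter. After 24 h the changes were 0.05 ± 0.12 (adjusted p = 0.894) and 0.01 ± 0.12 (adjusted p = 0.951), with a 95% interval of -0.24 to 0.27 for the latter. The difference between times at 1000 uM was 1.40 ± 0.17 (adjusted p = 1e-06).

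Cyp3a18 signals at 24 h were 5037, 4786, 4664, 4977 and 5292.5 under DMSO, 5691, 4979.9, 4512, 4920.1 and 5109 at 60 uM and 4958, 4445, 4977, 5754 and 5298 at 1000 uM. Cyp3a18 at 48 h read 3968, 4002, 4125, 4997 and 4909.8 under DMSO, 5896, 5277, 5744, 6109 and 6307 at 60 uM and 7138, 7423, 8079, 8373 and 8619.5 at 1000 uM. The groups overlapped at 24 h and stepped up with dose without overlap at 48 h. Cyp3a18, another male-predominant steroid hydroxylase, changed by 0.42 ± 0.07 (adjusted p = 0.000119) at 60 uM and 0.85 ± 0.07 (adjusted p = 2.04e-11) at 1000 uM after 48 h, and its 1000 uM effect differed between times by 0.82 ± 0.10 (adjusted p = 1.61e-06). Unlike Cyp3a2, its DMSO level did not pass as changed between times (-0.18 ± 0.07 (adjusted p = 0.17)). The difference between the 2 genes' responses was not tested.

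Cyp3a23-3a1 signals at 24 h were 73929, 79282, 77766, 70776 and 73597 under DMSO, 78974, 71081, 80878, 76727 and 76009 at 60 uM and 73647, 71687, 76052, 71453 and 74444 at 1000 uM. Cyp3a23-3a1 at 48 h read 75234, 79574, 74276, 71145 and 83066.5 under DMSO, 85905, 84159.6, 77459.6, 79140.5 and 83794 at 60 uM and 83655, 85710.0, 82899.7, 84734 and 82136 at 1000 uM. The treated wells overlapped DMSO in every comparison. Cyp3a23-3a1, the rat gene most readily induced through PXR by steroids such as dexamethasone and pregnenolone carbonitrile, changed by 0.13 ± 0.04 (adjusted p = 0.009) at 1000 uM and 48 h, and the other 3 DMSO comparisons did not pass. The highest signal of any probe set was 95378 to 118603 per array, so this probe set sat near the top of the measured range in every group, and whether its changes are compressed there was not tested. Cyp3a9, which predominates in females and is expressed outside the liver too, changed by -0.48 ± 0.14 (adjusted p = 0.00983) at 1000 uM and 24 h with overlapping wells, and this did not pass with spike-in scaling (-0.25, adjusted p = 0.225).

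The start-site windows of Cyp3a2, Cyp3a23-3a1 and Cyp3a18 are shown because they belong to the 3 genes of this subfamily that rose. The 48 h changes at 1000 uM were 1.42 for Cyp3a2 and 0.13 for its neighbour Cyp3a23-3a1, the latter from a probe set near the top of the measured range, and the difference between the genes was not tested. They lie at chr12:14343808-14344107 on the minus strand, chr12:14398754-14399053 on the minus strand and chr12:13994062-13994361 on the plus strand (GRCr8, RefSeq), are written 5′ to 3′ along the gene, and carry capitals for the same motifs as above.
Cyp3a2: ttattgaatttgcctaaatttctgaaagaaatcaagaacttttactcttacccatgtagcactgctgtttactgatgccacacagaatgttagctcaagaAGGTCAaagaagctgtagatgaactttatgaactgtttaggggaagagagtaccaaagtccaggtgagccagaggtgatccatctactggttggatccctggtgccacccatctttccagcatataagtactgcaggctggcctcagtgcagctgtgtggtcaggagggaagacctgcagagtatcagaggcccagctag
Cyp3a23-3a1: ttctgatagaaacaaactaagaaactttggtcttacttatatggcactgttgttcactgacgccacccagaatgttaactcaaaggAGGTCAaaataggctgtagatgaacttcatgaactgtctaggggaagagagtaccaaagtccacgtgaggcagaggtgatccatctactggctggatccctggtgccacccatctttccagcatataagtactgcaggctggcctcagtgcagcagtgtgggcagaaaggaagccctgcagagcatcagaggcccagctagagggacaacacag
Cyp3a18: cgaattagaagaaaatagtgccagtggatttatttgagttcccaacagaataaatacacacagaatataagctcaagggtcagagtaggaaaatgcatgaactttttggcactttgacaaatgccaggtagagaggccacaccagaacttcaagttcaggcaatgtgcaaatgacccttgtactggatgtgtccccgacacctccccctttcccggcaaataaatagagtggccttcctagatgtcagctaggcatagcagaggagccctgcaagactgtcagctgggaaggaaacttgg
Over 281 aligned bases the Cyp3a2 and Cyp3a23-3a1 windows were 89.3% identical, and both held an AGGTCA match, at -150 and -164 from the start site. Cyp3a18 was 65.2% identical to Cyp3a2 over 270 bases and its window held none of the 5 motifs. Cross-reading of similar transcripts between 3A probe sets was not tested. AGGTCA occurred in 11 of the 29 members with a window, beside 16.2% of 33469 RefSeq windows of the same length, TATAAA in 10 beside 14.2%, CCAAT in 13 beside 37.5%, GCGTG in 3 beside 29.7%, and GTTAAT in 3 beside 7.45%. A match describes letters in the window and no binding was measured.

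Many members differed between the times without clofibrate. Both time in culture and hours in 1% DMSO differ between these wells and cannot be told apart. Between 24 and 48 h under DMSO, 12 of the 29 passed, 10 lower and 2 higher (41.4%), beside 6.94% of all tested probe sets (3.88% higher and 3.07% lower) and 16.0% of the 25% brightest, and the wells of the 2 times did not overlap for 12 members beside 5.91% of all. Cyp2c13 changed by -2.29 ± 0.11 (adjusted p = 2.16e-16), a 4.88-fold drop, Cyp3a2 by -1.55 ± 0.12 (adjusted p = 5.77e-11), Cyp2c12 by -1.21 ± 0.21 (adjusted p = 0.000139), Cyp2c7 by -1.17 ± 0.09 (adjusted p = 6.93e-11) and Cyp1a2 by -1.11 ± 0.08 (adjusted p = 1.2e-12). Smaller falls were seen for Cyp3a9 (-0.66), Cyp2c23 (-0.47), Cyp2c11 (-0.39), Cyp2b3 (-0.36) and Cyp2c6v1 (-0.25). The 2 rises were Cyp2j4 (0.50 ± 0.06 (adjusted p = 3.17e-07)) and Cyp2a1 (0.49 ± 0.10 (adjusted p = 0.00126)). With spike-in scaling the falls of Cyp2b3, Cyp2c6v1, Cyp2c11 and Cyp2c23 did not pass (adjusted p = 0.316, 0.587, 0.259 and 0.0581), the count became 6 lower and 3 higher, and Cyp2b3 was also lost with median centring, in a fit on the compared groups alone and without DMSO 48 h replicate 1 or 2 or DMSO 24 h replicate 4.

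**Figure D3:**
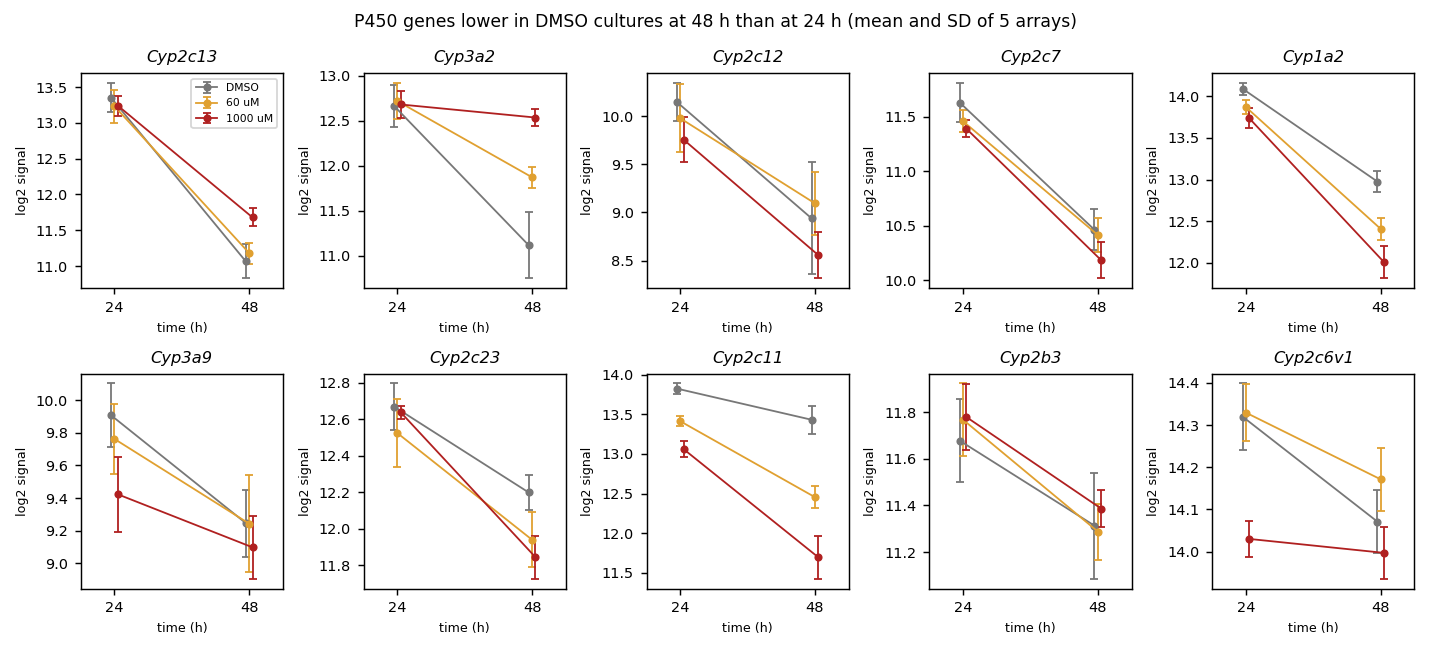
Mean log2 signal with SD (5 arrays) at 24 and 48 h under DMSO, 60 uM and 1000 uM clofibrate, 1 panel with its own vertical axis for each of the 10 P450 genes that were lower under DMSO at 48 h than at 24 h. The DMSO line changes by between -0.25 (Cyp2c6v1) and -2.29 (Cyp2c13), and at 48 h the 1000 uM point lies above DMSO by 1.42 for Cyp3a2 and by 0.61 for Cyp2c13 and below it for Cyp1a2 and Cyp2c11.

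The genes that had dropped under DMSO did not share 1 direction under clofibrate. Of the 10 that fell, Cyp2c13 and Cyp3a2 were higher at 1000 uM and 48 h, Cyp1a2, Cyp2c7, Cyp2c11 and Cyp2c23 were lower, and Cyp2b3, Cyp2c6v1, Cyp2c12 and Cyp3a9 did not pass. The same 48 h DMSO wells enter both comparisons, so these are given side by side only.

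Effects at 1000 uM were then compared between the times within 1 fit. The difference between times passed for 11 of 29 members (37.9%), 9 positive and 2 negative, beside 8.29% of all tested probe sets (4.17% higher and 4.12% lower) and 21.9% of the 25% brightest. The 5 largest were Cyp3a2 (1.40 ± 0.17), Cyp2c11 (-0.97 ± 0.13), Cyp2e1 (0.96 ± 0.13), Cyp2d3 (0.90 ± 0.13) and Cyp3a18 (0.82 ± 0.10). Among the 9 positive differences, Cyp1a1, Cyp2d2 and Cyp2c6v1 had a fall at 24 h that was smaller at 48 h, and Cyp2a2, Cyp2c13, Cyp2d3, Cyp2e1, Cyp3a2 and Cyp3a18 had a larger change upward at 48 h. Cyp2c6v1 (0.22 ± 0.06 (adjusted p = 0.0255)) was lost in 7 of 30 alternatives (highest adjusted p = 0.706). These were median centring, quantile normalization, spike-in scaling, no intensity trend, and leaving out DMSO 48 h replicate 3, 1000 uM 48 h replicate 3 or DMSO 24 h replicate 4. With spike-in scaling 7 passed, 5 positive and 2 negative. At 60 uM none of the 29 passed in limma, beside 0.0859% of all probe sets (0.0376% higher and 0.0483% lower) and 0.193% of the 25% brightest. Of the 29, 7 had an unadjusted p under 0.05. A fit on the compared groups alone passed 1, Cyp2c11 (-0.56, adjusted p = 0.028), as did leaving out DMSO 48 h replicate 3 (-0.63, adjusted p = 0.0363), and leaving out DMSO 48 h replicate 4 passed Cyp3a2 (0.80, adjusted p = 0.039).

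**Figure D4:**
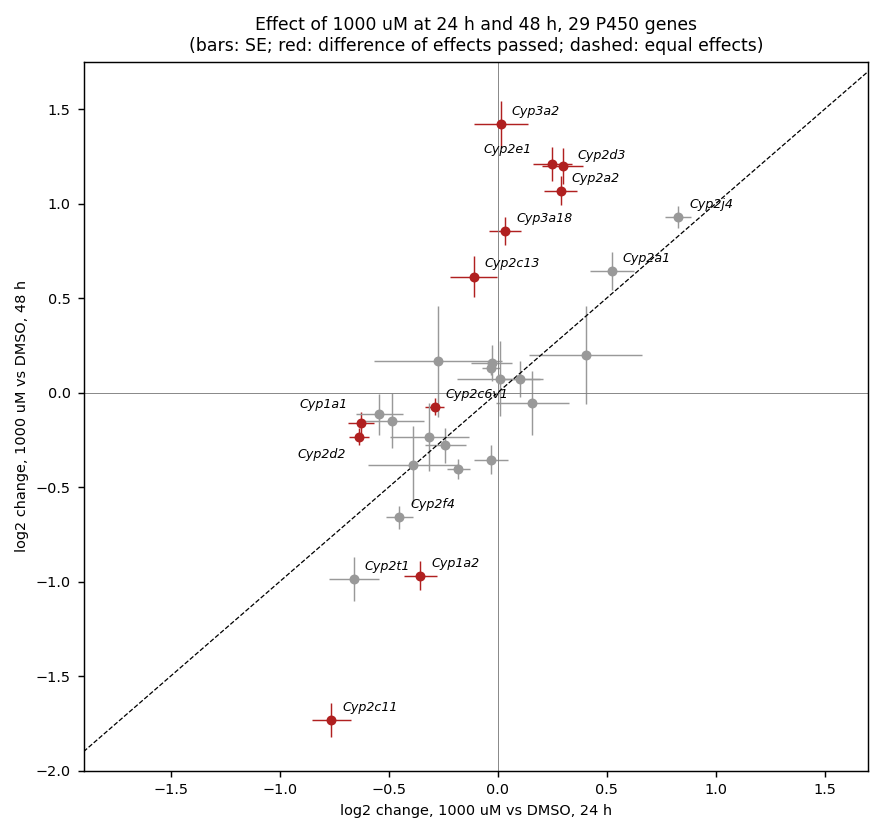
Log2 change from DMSO at 1000 uM clofibrate after 24 h (horizontal) against 48 h (vertical) for the 29 tested P450 genes, with SE bars, red where the difference of the 2 effects passed and a dashed line for equal effects. Cyp3a2 lies at 0.01 and 1.42 and Cyp2e1 at 0.25 and 1.21, above the line, while Cyp2c11 lies at -0.76 and -1.73, below it.

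The 2 doses were also compared with each other. At 24 h, 8 members differed between 1000 and 60 uM, 2 higher and 6 lower (27.6%), beside 17.9% of all tested probe sets (7.50% higher and 10.4% lower) and 36.4% of the 25% brightest, and 7 did not overlap beside 14.7%. The largest were Cyp2d2 (-0.46 ± 0.05 (adjusted p = 2.24e-09)), Cyp2c11 (-0.35 ± 0.09 (adjusted p = 0.00438)), Cyp2d4 (-0.32 ± 0.11 (adjusted p = 0.0364)), Cyp1a1 (-0.31 ± 0.06 (adjusted p = 0.000134)) and Cyp2c6v1 (-0.30 ± 0.04 (adjusted p = 3.85e-06)). Of these only Cyp2d2 passed with spike-in scaling, where the count was 2 higher and 1 lower, and Cyp2d4 was lost in 9 alternatives, including without 60 uM replicate 1 or 4 or 1000 uM replicate 1, 4 or 5. Cyp2e1 was higher at 1000 uM by 0.29 ± 0.09 (adjusted p = 0.0211) and was lost without replicate 3 of either group or 1000 uM replicate 4 (highest adjusted p = 0.064). At 48 h, 15 differed, 8 higher and 7 lower (51.7%), beside 25.3% of all (15.3% lower and the rest higher) and 49.2% of the 25% brightest, and 13 did not overlap beside 18.6%. These were led by Cyp2e1 (1.23 ± 0.09 (adjusted p = 8.21e-13)), Cyp2c11 (-0.76 ± 0.09 (adjusted p = 4.65e-08)), Cyp3a2 (0.66 ± 0.12 (adjusted p = 8.32e-05)), Cyp2a2 (0.64 ± 0.08 (adjusted p = 4.5e-08)) and Cyp2d3 (0.62 ± 0.09 (adjusted p = 4.46e-06)). Under spike-in scaling the 48 h counts were 8 higher and 3 lower.

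Grouped by sex pattern, the 5 genes known to predominate in male liver split. At 1000 uM and 48 h Cyp2a2, Cyp2c13, Cyp3a2 and Cyp3a18 rose and Cyp2c11 fell, and at 24 h Cyp2a2 rose, Cyp2c11 fell and the other 3 did not pass. Of the 3 in the list of genes known to predominate in females, Cyp2a1 rose, Cyp2c7 fell and Cyp2c12 did not pass at 1000 uM and 48 h. Cyp3a9, also known to predominate in females but not in that list, did not pass there. Under DMSO, 3 of the 5 male genes were lower at 48 h than at 24 h, beside 3.07% of all tested probe sets. Of these 3, Cyp2c11 did not pass with spike-in scaling (-0.22, adjusted p = 0.259). Cyp2c7, Cyp2c12 and Cyp3a9 were lower too, and Cyp2a1 was higher.

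The receptors and factors that control these genes were read from a list of 29, of which 23 were tested. At 1000 uM 6 rose and 9 fell at 24 h, with a median of -0.24 log2, and 9 rose and 7 fell at 48 h, with a median of 0.04, beside 28.9% and 37.9% of all probe sets. At 24 h the split was 8 higher and 4 lower with spike-in scaling. The largest changes at 1000 uM for 24 and 48 h were in Nr1h4, the bile acid receptor FXR (1.22 ± 0.07 and 1.19 ± 0.07), Cited2, a transcriptional co-regulator (-1.28 ± 0.06 and -0.72 ± 0.06), Onecut1, the hepatic factor HNF6 (-0.82 ± 0.25 and -0.83 ± 0.25), and Ahr itself (-0.65 ± 0.24 and -0.89 ± 0.24), and all 8 of these passed. Ahr at 24 h (adjusted p = 0.04) did not pass under any of the 3 other scalings, and Onecut1 at 24 h did not with spike-in scaling (adjusted p = 0.0978). Both genes were dim. Their mean signals at 1000 uM for 24 and 48 h were 238 and 175 for Ahr and 246 and 244 for Onecut1. The filter's cut on the mean over all arrays was 255. Nr1i2, which encodes PXR, was higher at both times (0.39 ± 0.07 and 0.48 ± 0.07), Nr1i3, which encodes CAR, passed at 48 h only (0.17 ± 0.07 and 0.32 ± 0.07), and Ghr, the growth hormone receptor, fell at both (-0.56 ± 0.07 and -0.70 ± 0.07).

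Electron donors and haem enzymes, which every P450 needs, were read from 16 tested genes of a list of 17. At 1000 uM 4 rose and 3 fell at 24 h (median -0.01) and 5 rose and 2 fell at 48 h (median 0.08), beside 28.9% and 37.9% of all probe sets passing in either direction. With spike-in scaling 7 and 9 rose and 0 fell. Alad (0.85 ± 0.06 and 1.03 ± 0.06), Alas1 (0.48 ± 0.06 and 0.84 ± 0.06) and Hmox2 (0.57 ± 0.08 and 0.81 ± 0.08) passed as higher at both times, the first 2 being early enzymes of haem synthesis and the third a haem oxygenase. Cyb5r3, a cytochrome b5 reductase, fell at both times as deposited (-0.49 ± 0.07 and -0.29 ± 0.07), and neither call held with spike-in scaling (adjusted p = 0.0701 and 0.369). Por, the P450 reductase, did not pass at either time (0.12 ± 0.06 and -0.00 ± 0.06).

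Other known targets of AHR, CAR and PXR that are not P450 genes were read from 15 tested genes of a list of 22. At 1000 uM 2 rose and 6 fell at 24 h (median -0.09), and 3 rose and 7 fell at 48 h (median -0.16), beside the same 28.9% and 37.9% of all. With spike-in scaling the splits were 5 higher and 2 lower and 4 higher and 5 lower. The largest fall at 24 h was that of Ugt2b1, a glucuronosyltransferase (-1.57 ± 0.08 and, at 48 h, -1.77 ± 0.08), and the largest at 48 h that of Abcc2, a canalicular bile pump (-1.13 ± 0.06 and -2.28 ± 0.06). Aldh1a1, a retinal dehydrogenase (1.22 ± 0.06 and 1.22 ± 0.06), and Ces2c, a carboxylesterase (0.63 ± 0.07 and 1.08 ± 0.07), rose at both times. All 8 of these calls held under the 3 other scalings.

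**Figure D5:**
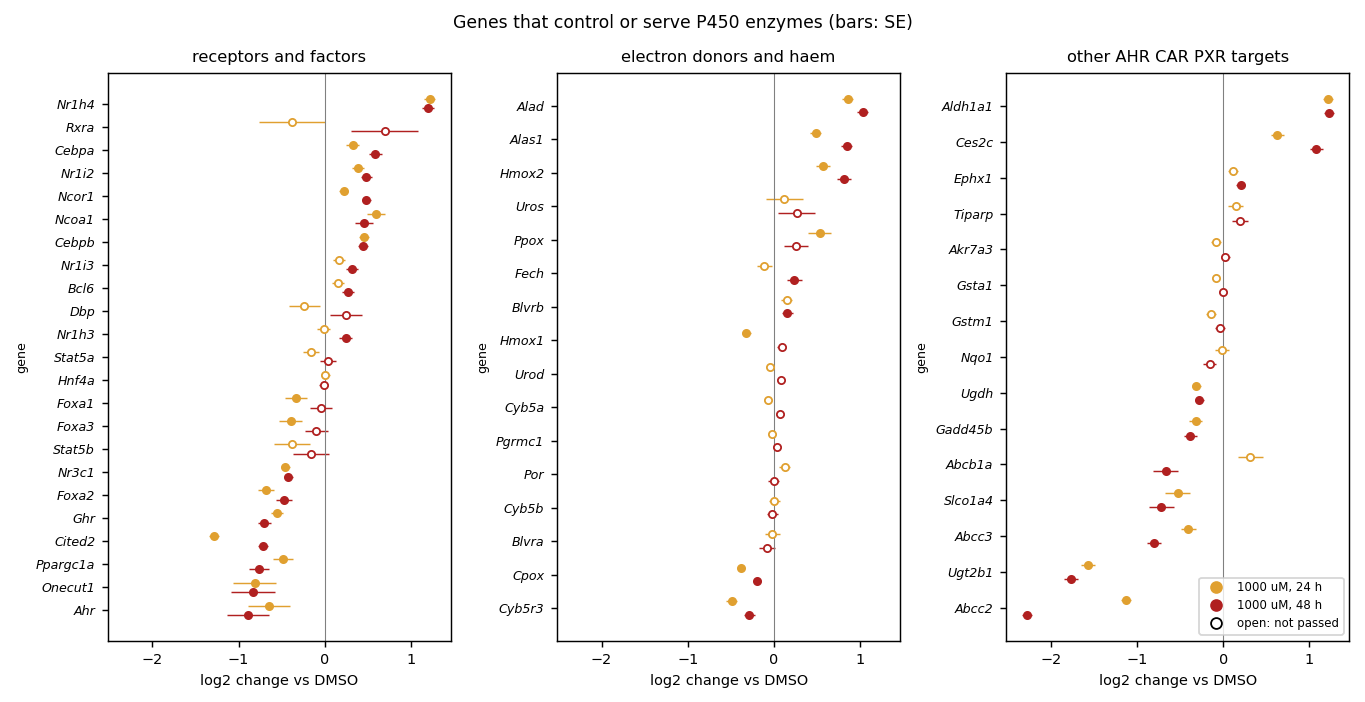
Log2 change from DMSO at 1000 uM clofibrate after 24 h (yellow) and 48 h (red), with SE bars, for every tested gene of the 3 lists (receptors and factors, electron donors and haem, other targets of AHR, CAR and PXR), open points where the change did not pass. Abcc2 reaches -2.28 at 48 h, Ugt2b1 lies at -1.57 and -1.77, and Nr1h4 and Aldh1a1 lie above 1 at both times.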

How the data were processed

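Expression was measured on 30 arrays, 5 for each of 6 groups. The authors deposited 1 table of intensity values from Affymetrix's MAS5 software, per the submitters' processing notes, for 31099 probe sets. The table's values are linear intensities, and every array had a trimmed mean (2% removed from each side) of 1499.986 to 1499.988 and a median of 393 to 458. Other upstream steps are not stated in the labels.

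The analysis started from the log2 of these intensities. Of 31042 non-control probe sets the dimmest 40% by mean log2 (under a signal of 255) were dropped, which left 18625 to test. One limma model (version 3.58.1 in R 4.3.3) held the 6 group means, with eBayes and an intensity trend, and gave 9 comparisons, each adjusted by Benjamini-Hochberg over all 18625. Signals are given as mean ± SD and log2 changes ± SE. The number of arrays limits the precision.

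Names came from the array platform's annotation, in which 20826 probe sets had 1 symbol, 436 several and 9780 none, and 20758 of the single symbols matched RefSeq by gene identifier. A gene was read from its brightest probe set by mean log2. The members, the gene lists and the comparisons were chosen with earlier results of these data known. Named were, among the members that passed, the 10 largest changes in each comparison with DMSO and the 5 largest in each other comparison, together with a fixed set of well-known rat P450 genes. All well values were given for the 12 largest changes at 1000 uM, for Cyp1a1, Cyp2e1 and Cyp3a23-3a1. From the lists of partner genes the 4 largest changes at 1000 uM were named. Cyp2c13 well values, and Nr1i2, Nr1i3, Ghr, Por, Tat and Alb, were added after their values had been seen. The background floor was the highest of 3 TrpnX negative control probe sets. Start-site windows were aligned pairwise with Biopython 1.88, and figures were drawn with matplotlib 3.10.9. Alternatives were 3 other scalings (median centring, quantile normalization, poly-A spike-in controls), 50 added before log2, no filter or a 60th percentile filter, no intensity trend, array weights, only the compared groups in the fit, the mean of all probe sets of a gene, leaving out each array in turn and, added after seeing the data, a replicate block (see the closing section).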

Additional observations from a re-analysis of the deposited data

Results flagged for a closer look

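In 11 of 174 combinations of a tested P450 gene and a group, 1 of the 5 wells stood apart from the other 4 by more than Dixon's critical value of 0.71 of the group's range of log2 signals. Chance alone is expected to mark about 1 in 20 such groups. Cyp1a2 read 16651 in 60 uM 24 h replicate 5, against 14339 to 14810.2 in the other 4 wells. Cyp2c6v1 read 18554 in DMSO 24 h replicate 3, against 20838.5 to 21225 in the other 4 wells. Cyp2c6v1 read 17637 in 1000 uM 24 h replicate 1, against 16409 to 16674 in the other 4 wells. Cyp2c7 read 949.6 in 1000 uM 48 h replicate 1, against 1173 to 1264 in the other 4 wells. Cyp2c12 read 666 in 60 uM 24 h replicate 5, against 1021 to 1214 in the other 4 wells. Cyp2c12 read 241 in DMSO 48 h replicate 2, against 532 to 631 in the other 4 wells. Cyp2c23 read 6664 in 1000 uM 24 h replicate 5, against 6261 to 6368 in the other 4 wells. Cyp2d3 read 17531 in 60 uM 48 h replicate 5, against 14252 to 15007 in the other 4 wells. Cyp2j3 read 2681 in 1000 uM 24 h replicate 1, against 2089 to 2189 in the other 4 wells. Cyp2s1 read 731 in 60 uM 48 h replicate 3, against 450.04 to 517 in the other 4 wells. Cyp3a2 read 4313 in 60 uM 48 h replicate 3, against 3565 to 3679 in the other 4 wells. The wells belong to several groups, and no array held more than 2 of them.

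The change at 1000 uM differed between 48 h and 24 h for 11 of the 29 genes by limma's interaction test, and the values are the 48 h change minus the 24 h change in log2. They were positive for Cyp3a2 (1.40), Cyp2e1 (0.96), Cyp2d3 (0.90), Cyp3a18 (0.82), Cyp2a2 (0.78), Cyp2c13 (0.72), Cyp1a1 (0.47), Cyp2d2 (0.41) and Cyp2c6v1 (0.22), and negative for Cyp2c11 (-0.97) and Cyp1a2 (-0.61). Cyp3a2 had the largest difference, from 0.01 at 24 h to 1.42 at 48 h.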

How the results depend on the processing

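The counts of P450 genes that passed stayed within 1.5 times their value under each alternative with 7 exceptions. With scaling to the spike-in controls the count fell from 8 to 4 at 60 uM and 24 h (4 higher, 0 lower, 3 of them shared with the deposited scaling), from 8 to 3 for 1000 against 60 uM at 24 h (2 higher, 1 lower), and from 11 to 7 for the difference of the 1000 uM effects between times (5 positive, 2 negative). In the fit on the compared groups only, 1 gene passed for the difference of the 60 uM effects, against 0, as did 1 without DMSO 48 h replicate 3 and 1 without DMSO 48 h replicate 4, and 1 with the replicate block described below. The cause of these shifts was not tested. The 1 change whose sign turned was Cyp2c22 at 1000 uM and 24 h with spike-in scaling, 0.0526 (adjusted p = 0.702). The split of higher and lower calls moved by over 10 percentage points with spike-in scaling at 60 uM for 48 h (5 and 3), at 1000 uM for 24 h (6 and 4) and 48 h (10 and 5), for 1000 against 60 uM at 48 h (8 and 3), for time under DMSO (3 and 6) and for the difference of the 1000 uM effects, with median centring at 60 uM for 24 h (4 and 3), and for the difference of the 1000 uM effects with the 60th percentile filter, the compared groups alone or the mean of probe sets (9 and 4 in each). Leaving out 1 array moved it as far at 60 uM for 24 h without DMSO replicate 4 (1 and 5), at 60 uM for 48 h without DMSO replicate 5 (7 and 4), at 1000 uM for 24 h without DMSO replicate 3 (3 and 10), and for 1000 against 60 uM at 24 h without replicate 3 of either dose (1 and 6, and 1 and 7).

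Leaving out each array in turn gave counts of 6 to 9 at 60 uM for 24 h, 13 to 15 at 1000 uM for 24 h, 9 to 11 at 60 uM for 48 h, 17 to 19 at 1000 uM for 48 h, 6 to 9 and 15 to 16 for 1000 against 60 uM at 24 and 48 h, 11 to 13 for time under DMSO, 0 to 1 for the 60 uM difference and 11 to 12 for the 1000 uM difference. Of the genes that passed, 1 of 8, 7 of 15, 8 of 10 and 14 of 18 passed under every alternative other than the block in the 4 comparisons with DMSO, in the order 60 and 1000 uM at 24 h, then at 48 h. The sample titles number the arrays in 5 runs of 6, each with 1 array of every group, and nothing in the labels says that a run shares cells or a day. Deviations from the group means were correlated over the tested probe sets. Between the 75 pairs of arrays in 1 run they correlated at -0.051 to 0.109 (median 0.006), against a median of -0.003 between runs. Of the 30 arrays, 11 were closest to their own run, where each could be closest to any 1 of the 5 runs. The number to be expected without a shared run was not computed. Whether a run shares more than a number cannot be told from these values. A fit with the run as a replicate block, added after seeing the data, lost none of the calls and gained 10 over the 9 comparisons. Counts with the block were 10, 16, 10 and 18 in the 4 comparisons with DMSO, 9 and 17 for 1000 against 60 uM, 14 for time under DMSO, 1 for the 60 uM difference (Cyp3a18, adjusted p = 0.0447) and 12 for the 1000 uM difference. Dim genes are limited by background: Cyp2b12 lay under the negative controls in every group.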
